A study of Mus musculus with 4 samples.

Results

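Effector Treg cells are regulatory T cells that have left the resting state and express homing receptors and suppressive mediators, and a small set of transcription factors is known to set up this state. The 10 factors examined here were Gata3, Prdm1, Batf, Irf4, Maf, Tbx21, Rora, Bcl6, Id2 and Id3, chosen by name from the 24087 rows of the deposited expression table. All 10 were listed, and all 10 passed the filter on low values (at least 1 FPKM in at least 2 libraries), as did 11399 rows in all. The levels were measured in splenic Treg cells with and without the histone methyltransferase Setd2, the enzyme that deposits H3K36me3 on chromatin. KO libraries came from Foxp3Cre-YFPSetd2f/f mice and CTRL libraries from Foxp3Cre-YFPSetd2f/+ littermates, all C57BL/6. Both groups therefore carried the Cre and at least 1 floxed Setd2 allele, so that CTRL was not wild type. Cre was expressed from the Foxp3 locus, and the cells were sorted from steady-state spleen as CD3+CD4+YFP+. Each group had 2 libraries, called CTRL 1, CTRL 2, KO 1 and KO 2, and each library was made from cells pooled from 2 mice.

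BATF and IRF4 bind DNA together at composite AP-1 and IRF elements, and in Treg cells they are known for switching on the effector program. Among its downstream factors is Prdm1, which encodes the repressor Blimp-1 and is known to restrain Bcl6, which in turn represses Prdm1. GATA3, T-bet (Tbx21), RORα (Rora) and c-Maf (Maf) are each linked to a specialised branch of effector Treg cells, whereas Id2 and Id3 encode proteins that hold E proteins away from DNA.

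Irf4 and Batf were higher in KO, Prdm1 was higher in both KO libraries without passing the test, and no factor was lower in KO past the threshold. Irf4 rose 1.84-fold and Batf 1.41-fold between the group means. Of the 10 factors, 2 were higher, 0 were lower and 8 did not pass at adjusted p under 0.05 (limma on log2(FPKM + 1), Benjamini-Hochberg over all genes tested). The same test called 5.10% of all genes tested higher and 4.65% lower. Both KO libraries lay above both CTRL libraries for 5 factors (Irf4, Batf, Prdm1, Rora and Tbx21), an arrangement seen in 29.0% of all genes tested. Both lay below for 1 factor (Bcl6), compared with 35.5% of all genes, and the libraries overlapped for the remaining 4. The median log2 fold change was 0.22 over the 10 factors and -0.02 over all genes tested, and 8 of the 10 fold changes were above 0. The factors were chosen with earlier results of these data known, so these counts and the median are not an independent test.

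Start regions of the factors that stood higher in both KO libraries by the widest margins are shown first, followed by those of Bcl6, which differed least. They were taken from RefSeq on GRCm38.p6 and run 5′ to 3′ on the strand of the gene, from 250 bases before the start of transcription to 50 after it. A window was found for 9 of the factors (Bcl6 had 2 windows), and not for Maf. Capitals mark matches, on either strand, to the motif named with each window.
Irf4, chr13:30748983-30749282, plus strand, with an IRF motif (GAAANNGA) 4 bases before the start: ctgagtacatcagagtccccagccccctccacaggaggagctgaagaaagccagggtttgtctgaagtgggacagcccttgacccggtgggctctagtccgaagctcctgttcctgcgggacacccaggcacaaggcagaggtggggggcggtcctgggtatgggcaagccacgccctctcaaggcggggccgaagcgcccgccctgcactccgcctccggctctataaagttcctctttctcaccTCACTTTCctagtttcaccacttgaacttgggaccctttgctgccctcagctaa
Batf, chr12:85686470-85686769, plus strand, with a GATA motif (AGATAA) 245 bases before the start: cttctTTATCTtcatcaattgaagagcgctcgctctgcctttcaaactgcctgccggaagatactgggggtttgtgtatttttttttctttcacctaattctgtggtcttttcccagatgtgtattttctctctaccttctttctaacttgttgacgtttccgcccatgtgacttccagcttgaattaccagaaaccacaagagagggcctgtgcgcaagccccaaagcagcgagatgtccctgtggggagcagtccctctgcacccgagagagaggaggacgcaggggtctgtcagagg
Prdm1, chr10:44458699-44458998, minus strand, with an AP-1 motif (TGANTCA) 48 bases before the start: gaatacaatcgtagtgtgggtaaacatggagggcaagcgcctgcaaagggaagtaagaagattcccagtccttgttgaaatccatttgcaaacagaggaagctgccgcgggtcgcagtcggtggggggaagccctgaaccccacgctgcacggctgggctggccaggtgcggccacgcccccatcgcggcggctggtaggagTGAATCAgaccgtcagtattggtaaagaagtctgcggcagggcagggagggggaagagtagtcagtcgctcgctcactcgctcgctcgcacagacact
Bcl6, chr16:23988803-23989102, minus strand, with a Bcl6 and STAT motif (TTCNNNGAA) 118 bases before the start: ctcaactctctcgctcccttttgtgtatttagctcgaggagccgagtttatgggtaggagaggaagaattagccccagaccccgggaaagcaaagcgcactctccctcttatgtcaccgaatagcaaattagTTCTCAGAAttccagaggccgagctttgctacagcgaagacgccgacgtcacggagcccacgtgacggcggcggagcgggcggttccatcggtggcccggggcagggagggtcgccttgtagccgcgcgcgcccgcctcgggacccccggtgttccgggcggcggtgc
Bcl6, chr16:23981234-23981533, minus strand, with the same motif at 168, 122 and 88 bases before the start: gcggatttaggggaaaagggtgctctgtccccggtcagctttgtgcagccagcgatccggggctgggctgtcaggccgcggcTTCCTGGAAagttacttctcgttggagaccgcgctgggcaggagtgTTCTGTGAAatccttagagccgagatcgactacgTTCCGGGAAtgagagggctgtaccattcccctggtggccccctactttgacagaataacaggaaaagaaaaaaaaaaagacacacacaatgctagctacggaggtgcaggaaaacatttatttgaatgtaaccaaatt

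These matches describe letters in the windows, not sites of binding. The IRF motif stood in 21.0% of all 32851 windows of this length, the GATA motif in 11.2%, the AP-1 motif in 7.8% and the Bcl6 and STAT motif in 8.3%. Of the 7 motifs searched, each window printed above held only the one named beside it. An E-box (CAGCTG, in 16.3% of windows) was matched in those of Gata3, Tbx21 and Id2, and the IRF motif also in that of Rora. The Id3 window held none of the 7. The ROR half-site (AGGTCA, 16.3%) and the T-box motif (AGGTGTNA, 3.0%) were not matched in any window of the factors. None of the matches overlapped another. The windows of Prdm1, Gata3, Id2 and Id3 and the second Bcl6 window lie inside the annotated gene bodies, since RefSeq lists starts downstream of the 5′ ends in GENCODE vM21.

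Irf4 (interferon regulatory factor 4, chr13:30749226-30766976, plus strand) stood at 18.0 FPKM in CTRL 1, 16.7 FPKM in CTRL 2, 35.7 FPKM in KO 1 and 28.0 FPKM in KO 2. Both KO libraries were well above both CTRL libraries, and KO 1 was the higher of the KO pair. Its mean was 17.3 ± 0.967 FPKM in CTRL and 31.8 ± 5.39 FPKM in KO (SD, n = 2 per group). The log2 fold change was 0.83 (95% confidence interval 0.51 to 1.15, standard error 0.125), with an adjusted p of 0.0355 by limma. This fold change exceeded those of 98.7% of the genes tested. At least 2703 reads in each library lay behind the values, and counting error accounted for a standard error of at most 0.024.

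Batf (a basic leucine zipper factor of the AP-1 family, chr12:85686669-85709087, plus strand) was among the most strongly expressed of the factors. It stood at 79.7 FPKM in CTRL 1, 72.9 FPKM in CTRL 2, 107.6 FPKM in KO 1 and 108.2 FPKM in KO 2. The KO libraries were nearly equal and above both CTRL libraries. The mean was 76.3 ± 4.77 FPKM in CTRL and 107.9 ± 0.423 FPKM in KO (SD, n = 2 per group). The difference was 0.50 on the log2 scale (95% confidence interval 0.33 to 0.66) with an adjusted p of 0.0346 by limma. Batf and Irf4 remained past the threshold in 11 of 12 analyses that kept all 4 libraries, and failed where all 19888 genes above 0 in any library were tested (adjusted p 0.086 for Batf and 0.0876 for Irf4). Leaving out any 1 library left no factor past the threshold and 0 or 1 genes in either direction among all tested.

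Prdm1 (chr10:44437177-44528501, minus strand), the gene of the zinc-finger repressor Blimp-1, was expressed weakly, at 7.83 FPKM in CTRL 1, 5.36 FPKM in CTRL 2, 10.7 FPKM in KO 1 and 10.1 FPKM in KO 2. Both KO libraries lay above both CTRL libraries, and the CTRL libraries differed more from each other than the KO libraries did. The log2 fold change was 0.60 (95% confidence interval 0.17 to 1.03), and the adjusted p of 0.0779 by limma missed the threshold. With limma-voom on the read numbers recovered from the FPKM values, the log2 fold change was 0.675 and the adjusted p 0.0429, and over all alternatives the adjusted p ran from 0.0267 to 0.227. Without CTRL 2 the log2 fold change was 0.36.

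Bcl6 (chr16:23965052-23988852, minus strand), which encodes a transcriptional repressor best known in follicular T cells, showed almost the same level in every library. Its values were 9.86 FPKM in CTRL 1, 9.47 FPKM in CTRL 2, 9.35 FPKM in KO 1 and 9.31 FPKM in KO 2. The KO libraries were marginally below the CTRL libraries, by a log2 fold change of -0.046 (95% confidence interval -0.23 to 0.13, adjusted p 0.678 by limma), and the direction turned to 0.016 under quantile normalization. The ratio of Prdm1 to Bcl6 FPKM was 0.794 for CTRL 1, 0.566 for CTRL 2, 1.14 for KO 1 and 1.08 for KO 2. Bcl6 thus stood above Prdm1 in both CTRL libraries and below it in both KO libraries. The difference in the log2 ratio was 0.65, with a two-sided exact permutation p of 0.333, which is the smallest that 2 libraries against 2 can give.

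**Figure D1:**
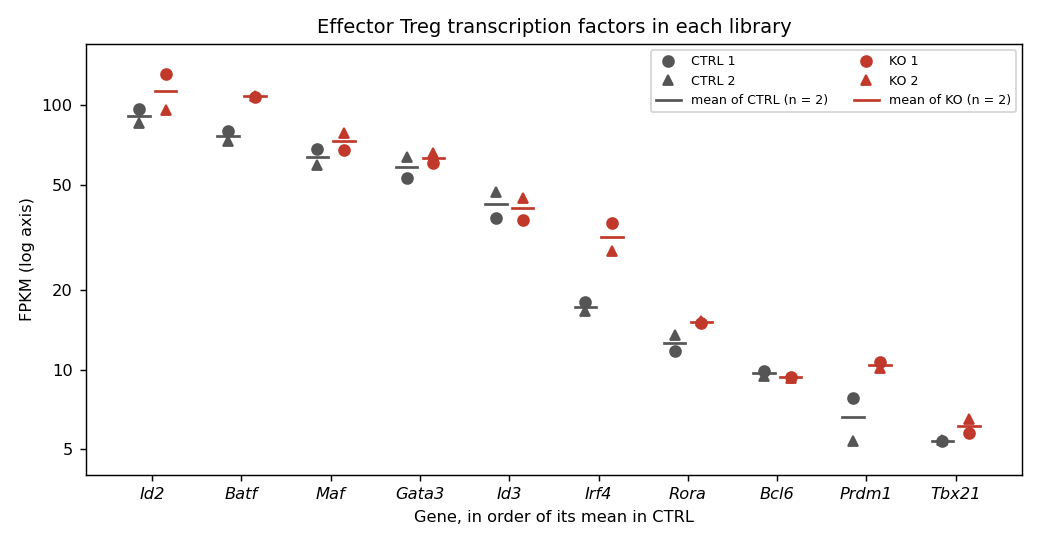
Deposited FPKM (log axis) of the 10 factors in each library, ordered by their mean in CTRL, with grey symbols for CTRL, red symbols for KO, circles for replicate 1, triangles for replicate 2 and bars for the mean of each group (n = 2). Irf4 went from 18.0 and 16.7 FPKM in CTRL to 35.7 and 28.0 FPKM in KO, whereas the libraries of Maf, Gata3, Id2 and Id3 overlapped between the groups.

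The factors linked to specialised branches did not pass the test. Rora (chr9:68653786-69388246, plus strand), which encodes the orphan nuclear receptor RORα, stood at 11.7 FPKM in CTRL 1, 13.5 FPKM in CTRL 2, 15.0 FPKM in KO 1 and 15.2 FPKM in KO 2. The KO libraries were above the CTRL libraries, with a log2 fold change of 0.25 (95% confidence interval 0.02 to 0.47, adjusted p 0.121 by limma). Tbx21 (chr11:97098071-97115331, minus strand), the gene of T-bet, a T-box factor of type 1 responses, stood at 5.35 FPKM in CTRL 1, 5.43 FPKM in CTRL 2, 5.73 FPKM in KO 1 and 6.51 FPKM in KO 2. It was the weakest of the 10 factors, and its KO libraries were slightly above the CTRL libraries. The log2 fold change was 0.15 (95% confidence interval -0.08 to 0.39).

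Maf (chr8:115682942-115707794, minus strand), which encodes the leucine zipper factor c-Maf, stood at 67.9 FPKM in CTRL 1, 59.2 FPKM in CTRL 2, 67.4 FPKM in KO 1 and 78.4 FPKM in KO 2. KO 1 fell between the CTRL libraries, so the groups overlapped, and the interval of the log2 fold change was -0.07 to 0.46 around 0.20. Gata3 (chr2:9857078-9890034, minus strand), the zinc-finger factor that accompanies the receptor ST2 in Treg cells, stood at 53.1 FPKM in CTRL 1, 63.3 FPKM in CTRL 2, 60.2 FPKM in KO 1 and 65.9 FPKM in KO 2. The groups overlapped here as well, with a log2 fold change of 0.12 (95% confidence interval -0.14 to 0.38, adjusted p 0.457 by limma), which became -0.006 without CTRL 1. The interval of Gata3 includes changes of either sign. The ratio of Gata3 to Tbx21 was 9.93 for CTRL 1, 11.6 for CTRL 2, 10.5 for KO 1 and 10.1 for KO 2, with both KO values between the CTRL values.

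Gata3 shares 77 exonic bases (1.9% of its exonic length) with 9230102O04Rik on the same strand, which stood at 1.08, 1.02, 2.46 and 1.26 FPKM in CTRL 1, CTRL 2, KO 1 and KO 2. Whether the authors' counting used strand was not stated, and Gata3, Maf, Rora and Bcl6 also overlap genes on the opposite strand by at most 5.3% of their exonic length.

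The Id genes encode small helix-loop-helix proteins without a DNA-binding region. Id2 (chr12:25093799-25097140, minus strand) had the highest mean of the 10 factors, at 96.2 FPKM in CTRL 1, 85.3 FPKM in CTRL 2, 130.9 FPKM in KO 1 and 95.3 FPKM in KO 2. Only KO 1 stood above the CTRL libraries, and KO 2 fell between them. The log2 fold change was 0.30 (95% confidence interval -0.11 to 0.71) and went down to 0.07 without KO 1. Id3 (chr4:136143497-136145755, plus strand), which is linked to the resting state, stood at 37.5 FPKM in CTRL 1, 47.0 FPKM in CTRL 2, 36.8 FPKM in KO 1 and 44.6 FPKM in KO 2. Replicate 2 was the higher in both groups, which overlapped, and the log2 fold change of -0.05 had an interval of -0.41 to 0.31. It was 0.11 without CTRL 2 and 0.085 without KO 1. The ratio of Id2 to Id3 was 2.57 for CTRL 1, 1.82 for CTRL 2, 3.55 for KO 1 and 2.14 for KO 2, so that the groups overlapped, and the difference of 0.35 in the log2 ratio became -0.013 without KO 1.

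**Figure D2:**
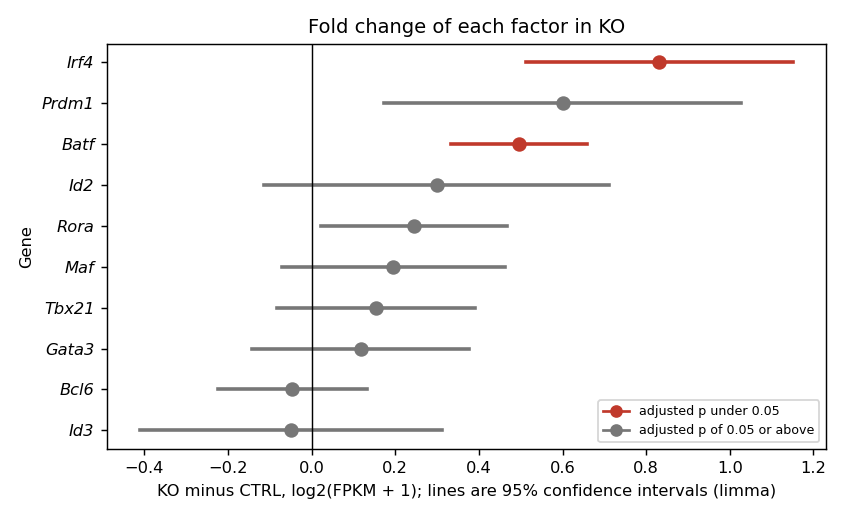
Difference between KO and CTRL on the log2(FPKM + 1) scale for each factor, with points for the estimate of limma, lines for its 95% confidence interval, red for adjusted p under 0.05 and grey for the others (2 libraries per group). The intervals of Irf4, Batf, Prdm1 and Rora lie above 0, while those of the other 6 include 0, and the sign of Bcl6 flips under quantile normalization.

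FPKM is scaled by gene length, so the factors can be ordered by it. The lengths used were not given, and the order of any pair of factors depends on them. In CTRL the order of the means was Id2, Batf, Maf, Gata3, Id3, Irf4, Rora, Bcl6, Prdm1 and Tbx21, from 90.8 to 5.39 FPKM. The CTRL libraries of neighbouring genes overlapped for Maf and Gata3 and for Prdm1 and Tbx21, and were separate for every other neighbouring pair. In KO the order was the same except that Prdm1 (mean 10.4 FPKM) stood above Bcl6 (mean 9.33 FPKM). The KO libraries of Id2 and Batf overlapped, those of all other neighbours being separate. Batf exceeded Irf4 in every library, by a ratio of 4.42 for CTRL 1, 4.38 for CTRL 2, 3.02 for KO 1 and 3.86 for KO 2. The ratio was thus lower in both KO libraries, by 0.34 on the log2 scale (exact permutation p of 0.333, the smallest possible here).

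The size of the differences varied between libraries of the same number. Irf4 was higher in KO 1 than in CTRL 1 by 0.95 on the log2 scale and in KO 2 than in CTRL 2 by 0.72, Batf by 0.43 and 0.56, and Prdm1 by 0.40 and 0.80. The sign of these differences was already given by the KO libraries lying above the CTRL libraries. Of the 10 factors, 7 were higher in KO 1 than in CTRL 1 and 8 in KO 2 than in CTRL 2, whereas 46.0% and 47.3% of all genes tested were.

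Partners of the factors, that is, proteins they bind or that occupy the same elements, were called about as often as genes in general. Of 27 partner genes 23 were tested, of which 1 was higher and 0 were lower in KO, compared with 5.10% and 4.65% of all genes tested. Their median log2 fold change was 0.08. The gene that passed was Runx3, a runt-domain factor that works with T-bet in T cells, at 22.0 FPKM in CTRL 1, 24.4 FPKM in CTRL 2, 30.1 FPKM in KO 1 and 32.7 FPKM in KO 2. Both KO libraries were above the CTRL libraries, and the log2 fold change was 0.42 (adjusted p 0.043 by limma, and 0.0966 with all genes above 0 tested). None of the 5 AP-1 and IRF partners tested passed, with log2 fold changes from -0.17 to 0.31. Neither did any of the 3 E proteins and other Id genes, the 3 Bcl6 corepressors or the 4 genes of the Bach2 and small Maf group.

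Among genes of the effector state, granzyme B, interleukin 10 and several receptors were higher in KO. Of 27 effector genes 26 were tested, and 8 were higher and 1 was lower in KO, beside 5.10% and 4.65% of all genes tested. Their median log2 fold change was 0.40, against -0.02 over all genes. The KO libraries lay both above the CTRL libraries for 16 of the 26 and both below for 4, arrangements that 29.0% and 35.5% of all genes had. This list was chosen with earlier results of these data known, so its counts and median are not an independent test of the effector state. Genes linked to Blimp-1 and c-Maf were both higher. Gzmb, which encodes the cytotoxic protease granzyme B, stood at 17.0 FPKM in CTRL 1, 14.6 FPKM in CTRL 2, 36.6 FPKM in KO 1 and 47.2 FPKM in KO 2. Il10, the gene of the suppressive cytokine interleukin 10, stood at 25.2 FPKM in CTRL 1, 23.4 FPKM in CTRL 2, 48.6 FPKM in KO 1 and 40.6 FPKM in KO 2. In both genes the KO libraries were clear of the CTRL libraries. The log2 fold change was 1.34 for Gzmb (adjusted p 0.0306) and 0.84 for Il10 (adjusted p 0.0346), both by limma.

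Among 7 genes linked to BATF and IRF4, 3 were higher and 0 lower. They were Icos, the costimulatory receptor (log2 fold change 0.63), Tnfrsf9, which encodes 4-1BB (0.38), and Tnfrsf4, which encodes OX40 (0.31). Tnfrsf9 stood at 56.6 FPKM in CTRL 1, 62.0 FPKM in CTRL 2, 76.4 FPKM in KO 1 and 78.6 FPKM in KO 2, and Tnfrsf4 was the most abundant of the 3. The calls of Tnfrsf9 and Tnfrsf4 were lost in 4 of 12 analyses with all libraries, among them quantile normalization. Cxcr5, a follicular homing receptor listed with Bcl6, stood at 21.3 FPKM in CTRL 1, 18.6 FPKM in CTRL 2, 30.3 FPKM in KO 1 and 30.4 FPKM in KO 2. Its log2 fold change was 0.59, with an adjusted p of 0.0351 by limma. It rose while Bcl6 itself stood at nearly the same level in all libraries.

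Cxcr3, a chemokine receptor under T-bet, was higher by 0.49 on the log2 scale (adjusted p 0.0371 by limma). Its call held in 10 of 12 analyses with all libraries. It was lost without a variance trend (adjusted p 0.0523 by limma) and with all genes above 0 tested (0.0861). Il12rb2, the other T-bet gene, was below the filter. Of the 3 genes linked to GATA3, Il1rl1, the gene of ST2, was lower (log2 fold change -1.07, adjusted p 0.0379 by limma) and 0 were higher. The other two, the chemokine receptors Ccr8 (log2 fold change 0.62, adjusted p 0.0615 by limma) and Ccr4 (0.30, adjusted p 0.062), did not pass, and both had their KO libraries above the CTRL libraries. The fall of Il1rl1 stood beside Gata3 values that overlapped between the groups. Ebi3, a subunit of interleukin 35, was the only one of the remaining 11 effector genes to pass, at 19.0 FPKM in CTRL 1, 21.1 FPKM in CTRL 2, 32.0 FPKM in KO 1 and 31.9 FPKM in KO 2 (log2 fold change 0.65). Of these 11, both KO libraries lay above the CTRL libraries for 5 and below for 3, beside 29.0% and 35.5% of all genes tested. The 3 below were Il2ra (log2 fold change -0.35, adjusted p 0.138 by limma), Itgae (-0.22, adjusted p 0.0793) and Cd44 (-0.18, adjusted p 0.126).

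Factors of the resting state showed no calls. All 8 (Tcf7, Lef1, Foxp1, Bach2, Satb1, Klf2, Foxo1 and Myb) were tested, and their median log2 fold change was -0.11. For 4 of them the KO libraries were both below the CTRL libraries, and for 0 both above, beside 35.5% and 29.0% of all genes tested, so that the count below was near that of genes in general. Bach2, a repressor that competes at AP-1 elements, stood at 10.0 FPKM in CTRL 1, 10.7 FPKM in CTRL 2, 8.34 FPKM in KO 1 and 8.40 FPKM in KO 2. Its KO libraries were below the CTRL libraries, with a log2 fold change of -0.28 and an adjusted p of 0.0718 by limma that missed the threshold.

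**Figure D3:**
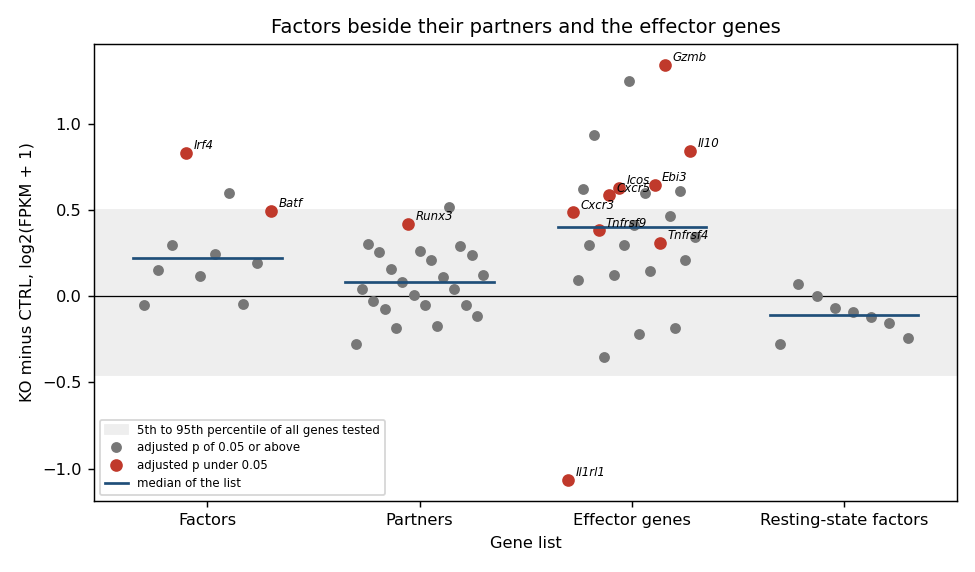
Difference between KO and CTRL on the log2(FPKM + 1) scale for each tested gene of 4 lists, with red points for adjusted p under 0.05 (limma), blue bars for list medians and grey shading from the 5th to the 95th percentile of all genes tested. The median was 0.22 for the factors, 0.08 for the partners, 0.40 for the effector genes and -0.11 for the resting-state factors, and Irf4 and Prdm1 were the only factors above the shaded range, whose upper edge was 0.50.

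The fold changes of the factors were recomputed under other filters, scalings and variance models, and with each library left out. Irf4 ran from 0.82 to 0.86 with all 4 libraries and from 0.66 to 1.00 with 1 library left out, and Batf from 0.40 to 0.51 and from 0.43 to 0.56. Neither approached 0. For Id2 the range with 1 library left out was 0.07 to 0.53, and for Id3 it crossed 0.

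**Figure D4:**
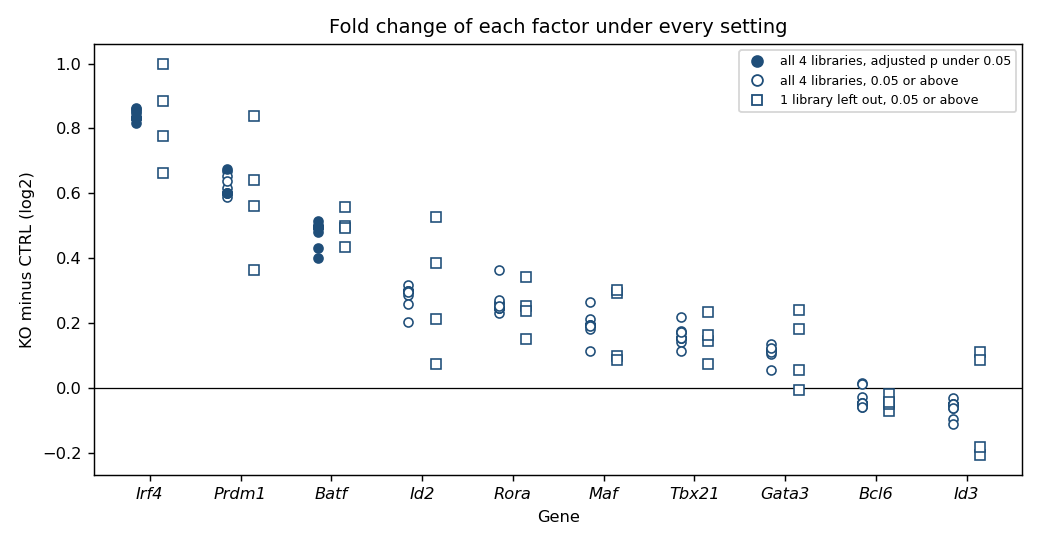
Log2 difference between KO and CTRL for each factor under each analysis, with circles for the 12 analyses of all 4 libraries, squares for the 4 that left out 1 library and filled symbols for adjusted p under 0.05. Irf4 and Batf were filled in 11 of the 12 analyses with all libraries, Prdm1 in 2, and no square was filled; Bcl6, Gata3 and Id3 had symbols on both sides of 0.

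The libraries held at least 28920643 to 31604963 reads, and 15913 to 19100 genes were above 0. Setd2 itself stood at 23.4 FPKM in CTRL 1, 25.3 FPKM in CTRL 2, 21.3 FPKM in KO 1 and 19.5 FPKM in KO 2, lower in both KO libraries without passing the test (adjusted p 0.097 by limma), and its floxed exons were not analysed here on their own. Foxp3, the lineage factor of Treg cells, was at 120.6, 139.8, 111.6 and 119.2 FPKM in CTRL 1, CTRL 2, KO 1 and KO 2, and Cd3e, a subunit of the T cell receptor complex, ran from 220.1 to 251.3 FPKM. Markers of other cells were also detected. For 7 myeloid markers the FPKM summed to 173.4 (CTRL 1), 103.4 (CTRL 2), 239.3 (KO 1) and 84.5 (KO 2), and all 7 were higher in replicate 1 than in replicate 2 in both groups. That of 8 B cell markers was 27.2, 22.4, 42.9 and 25.2 in the same order, that of 5 plasma cell markers 93.4, 71.5, 116.6 and 80.2, and that of 5 erythroid markers 22.7, 4.16, 38.5 and 11.4. In the libraries numbered 2, the myeloid sum was lower in KO than in CTRL, and the B cell, plasma cell and erythroid sums were higher. No marker of any list passed the test, and none was at 0 in all libraries. Id2, Irf4 and Prdm1 were highest in KO 1, as were the myeloid, B cell, plasma cell and erythroid sums, and the part of these cells in the result was not tested. Irf4 and Prdm1 are also expressed in B lineage cells, where they act in plasma cell formation. In such bulk RNA, more cells that express a factor and more RNA of it per cell cannot be told apart.

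**Figure D5:**
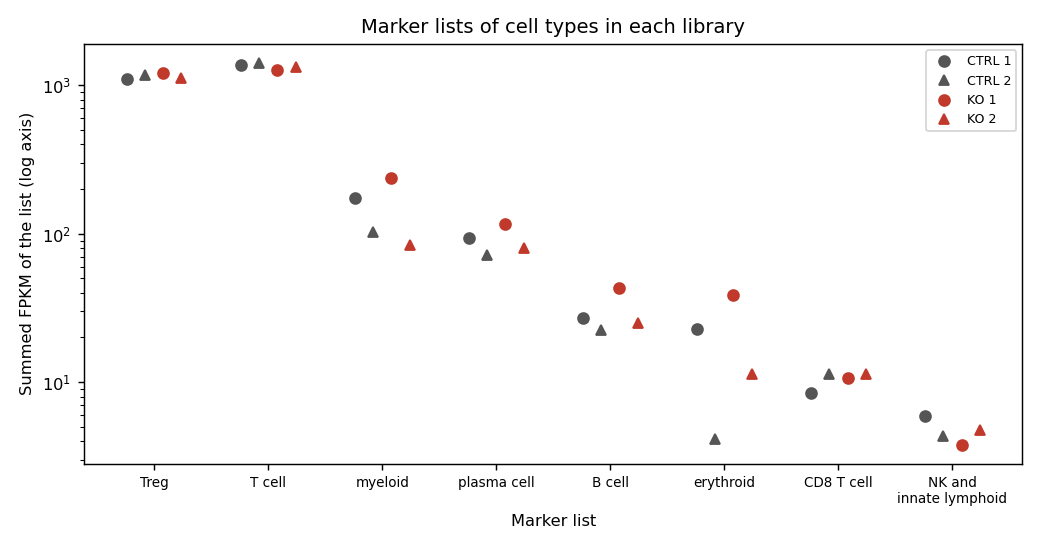
Summed FPKM (log axis) of the markers of 8 cell types in each library, with grey symbols for CTRL, red for KO, circles for replicate 1 and triangles for replicate 2. The myeloid sum was higher in the libraries numbered 1 (173.4 and 239.3) than in those numbered 2 (103.4 and 84.5) in both groups, while the sums of T cell and Treg markers lay between 1107.3 and 1413.4.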

How the data were processed

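Oligo(dT)-purified RNA of splenic Treg cells was sequenced as read pairs, in 2 CTRL and 2 KO libraries. Per the submitters' processing notes, the authors used FastQC, HISAT2 2.2.1, featureCounts 2.0.1 and edgeR 3.34.0 with mm10. The deposited values were FPKM, made by the authors, and the gene lengths and the use of strand were not given in the sources used here. Control columns named WT with a number were read as the CTRL libraries of that number.

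KO was compared with CTRL by limma 3.58.1 (R 4.3.3) on log2(FPKM + 1) with a variance trend, over 11399 genes with at least 1 FPKM in 2 or more libraries. The tests were two-sided, with the Benjamini-Hochberg adjustment taken over all of these genes. Fold changes of weakly expressed genes are understated on this scale. The study tested counts with edgeR, which FPKM values do not allow. Ratios of low FPKM values between libraries were those of whole numbers, from which reads were recovered for 19879 of 19888 rows (99.955%, within 0.002 of a read). These are lower bounds. limma-voom on these reads called 862 genes higher and 1037 lower. The precision of a fold change came from the spread within groups of 2 libraries. Nothing in the labels says whether these were separate experiments, so the p-values measure only the spread between these libraries. Ratios between factors were compared by exact permutation tests (numpy 2.4.6), and positions came from GENCODE vM21 on GRCm38, the same build as mm10. The procedure was also run on simulated data with known changes of a single size. These were drawn with the same dispersion for every gene and no effect shared by replicate number, so they do not bear on the single calls here.

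The factors, the partner, effector and resting lists and the motifs were chosen with earlier results of these data known, and Bach2 is in both the partner and the resting list. Named genes were the 10 factors, Setd2, called genes of the lists, genes that overlap a factor, and markers. Cxcr5, Gzmb and the other called genes were thus named after their test. Ccr8, Ccr4, Il12rb2, Il2ra, Itgae, Cd44 and the resting-state factors were named without a call. Uncalled genes nearer the threshold than Bach2 (adjusted p 0.0718 by limma) but given no values above included Cxcr6 (log2 fold change 1.25, adjusted p 0.0509), Irf2 (0.26, 0.0509), Tigit (0.61, 0.0513) and Satb1 (-0.24, 0.0622). The alternatives were a pseudocount of 0.1, other filters, scalings and variance models, the replicate number as a block, limma-voom, and leaving out each library. Subtracting the dependence on exon length from every library was added after seeing the data.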

Additional observations from a re-analysis of the deposited data

How the results depend on the processing

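When the test covered all 19888 genes above 0 in any library, limma called 0 factors, 0 partners and 0 effector genes, and 0 genes in all, against 2212 higher and 2251 lower at an unadjusted p under 0.05. Leaving out 1 library likewise gave a range of 0 to 0 higher factors, higher partners and higher or lower effector genes, with 0 or 1 genes called in each direction among all tested. This says little about any single gene, since fewer libraries were fitted. Higher partners numbered 1 in the main analysis, 0 without a variance trend, 2 with robust eBayes, 3 at a mean FPKM above 5 in either group, 3 with limma-voom and 3 with the exon length trend removed, and limma-voom called 1 partner and 2 resting-state factors lower. Higher effector genes numbered 8 in the main analysis, 13 at a mean FPKM above 5, 5 without a variance trend and 13 with limma-voom.

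The replicate numbers are not said to mark a shared litter or day, and libraries of the same number deviated from their groups' means with a correlation of 0.342 across genes, which are not independent. With the replicate block, 3 factors (Prdm1 the third, adjusted p 0.0267 by limma), 2 partners and 15 effector genes were higher and 2 effector genes lower, with 968 higher and 805 lower genes among all tested.

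The log2 difference between KO and CTRL in the ratio of Id2 to Id3 ranged from -0.013 to 0.710 with 1 library left out and that of Gata3 to Tbx21 from -0.151 to 0.079. Single genes reversed were Bcl6 (0.016 under quantile normalization and 0.011 with the exon length trend removed), Gata3 (-0.006 without CTRL 1) and Id3 (0.109 without CTRL 2 and 0.085 without KO 1). The cause of these shifts was not tested. For Irf4, Batf and Prdm1 the counting errors were at most 0.024, 0.027 and 0.038 on the log2 scale, beside standard errors of 0.125, 0.063 and 0.167. The part of depth in these standard errors was not tested.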
